A study of Mus musculus with 6 samples.

Results

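Interferon-stimulated genes are described here as a listed set of 44 genes, comprising the interferon receptors, the factors that carry their signal, the sensors of foreign nucleic acid and the effectors that interferon induces. The members were taken by symbol from the 25043 genes in the deposited table, and all 44 were found. The study sequenced total RNA of primary mouse embryonic fibroblasts (MEFs), with 3 samples from wild type (WT) and 3 from Anp32e-/- cells. Anp32e encodes a histone chaperone that removes the histone variant H2A.Z from chromatin. Cells of both genotypes were grown in DMEM with 10% FBS, and used at passages below 8, and the labels name no interferon or other agent. The labels do not say whether the 3 samples of a genotype came from separate embryos or separate cultures, and they give no embryonic age.

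The deposited table gives, for each transcript, 1 mean over all 6 libraries. This mean normalised count is the read count divided by a size factor that corrects for library depth, averaged over WT and Anp32e-/- samples together. Other columns hold the authors' own test of the genotypes and were not used, so the levels below are those of the 6 samples as a whole and no difference between WT and Anp32e-/- MEFs is given. For Anp32e itself the mean was 2190 over both genotypes, which checks no label.

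Type I interferons bind a receptor made of IFNAR1 and IFNAR2, and the type II interferon binds IFNGR1 and IFNGR2. The receptors activate JAK kinases, which phosphorylate STAT proteins. A complex that contains STAT2 and IRF9 binds the interferon-stimulated response element (ISRE) in promoters of the type I response, whereas the type II response acts through the gamma-activated sequence (GAS). Fibroblasts are a classical source of interferon beta and respond to it, and many effector genes keep a low basal level without infection.

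To ask which members carry these elements, promoters from 250 bases before the transcription start to 50 bases from it on were searched on both strands. RefSeq sequences of GRCm38.p6 matched 36 of the 44 members. The members without an entry were Dhx58, Zbp1, Usp18, Oas2, Mx1, Mx2, Iigp1 and Ifi27. The ISRE core was spelled GAAANNGAA, where N is any base, and overlapping matches were counted separately. It was found in 21 of 36 members (58.3%), compared with 9.17% of 17784 genes with a promoter, where a gene counts if any of its promoters holds a match. The GAS core, spelled TTCNNNGAA, was found in 13 of 36 members (36.1%), compared with 9.18% of genes. When the search covered only the 200 bases before the start, 7 members (19.4%) and 6.12% of genes held it. Of the 14 GAS matches, 2 overlapped an ISRE match. Both cores were present in 7 members and neither in 9.

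The 7 promoter stretches below are shown because they carry the ISRE core in the ISG15 system, RNA effectors, GTPases and membrane effectors, including members whose counts by library follow below. Each reads 5′ to 3′ on the strand of the gene, with up to 30 bases on each side, and the capitals mark the match nearest to the start. A match on the opposite strand appears as its reverse complement. In GRCm38.p6 the stretches lie at chr4:156200846-156200914 on the minus strand for Isg15, chr19:34640775-34640843 on the plus strand for Ifit1, chr5:120907501-120907569 on the minus strand for Oas1a, chr3:142620575-142620643 on the plus strand for Gbp2, chr11:58199492-58199560 on the plus strand for Igtp, chr11:48871406-48871474 on the minus strand for Irgm1 and chr7:141010704-141010772 on the minus strand for Ifitm3.
Isg15: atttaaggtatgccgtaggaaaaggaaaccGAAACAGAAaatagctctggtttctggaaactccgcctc
Ifit1: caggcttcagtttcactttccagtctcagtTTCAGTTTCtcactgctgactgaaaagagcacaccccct
Oas1a: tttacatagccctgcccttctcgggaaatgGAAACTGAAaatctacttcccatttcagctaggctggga
Gbp2: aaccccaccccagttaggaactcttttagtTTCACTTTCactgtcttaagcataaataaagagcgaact
Igtp: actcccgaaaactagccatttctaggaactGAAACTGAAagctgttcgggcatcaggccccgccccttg
Irgm1: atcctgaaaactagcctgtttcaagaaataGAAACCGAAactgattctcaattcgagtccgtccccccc
Ifitm3: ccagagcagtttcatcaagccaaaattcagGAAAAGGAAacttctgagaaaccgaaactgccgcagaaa

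The 21 members held 36 ISRE matches, of which 27 were centred within 100 bases of the start and 28 before it. The window holds 250 bases before the start and 50 from it on, so most matches would lie before it by position alone. Positions were not compared with those in all genes. In 12 members a promoter held 2 or more matches, and Isg15, Ifit1 and Ifit3 held 3 each. Some of these overlap, as in Isg15, where they are centred at -74, -68 and -62 bases from the start. The share of all genes with 2 or more matches was not taken. Igtp has its single match 30 bases before the start and Oas1a has its nearest 10 bases before it, whereas the nearest match of Ifitm3 is centred 6 bases past the start.

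**Figure D1:**
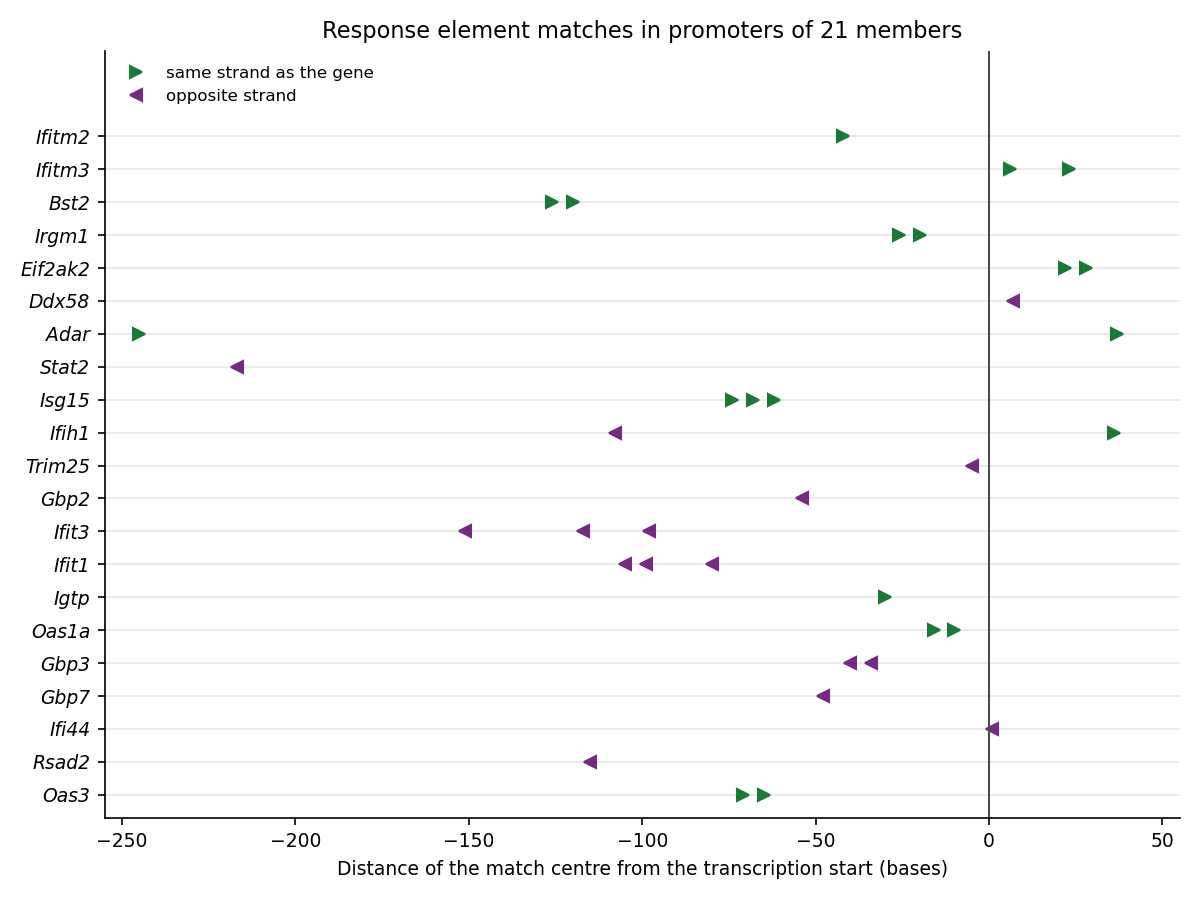
Matches to the ISRE core in the promoters of 21 members, with the distance of the match centre from the transcription start in bases on the x axis and the members in order of level per kilobase on the y axis. Triangles pointing right are matches on the strand of the gene and those pointing left are on the opposite strand; 27 of 36 matches lie within 100 bases of the start.

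By role, the ISRE core was absent from the promoters of the 4 receptors, while 2 of them, Ifnar1 and Ifnar2, held the GAS core. Among effectors, all 5 GTPases with a promoter entry held the ISRE core, as did 4 of 5 membrane effectors. No ISRE match was found in the windows of Irf1, Irf3, Irf7, Irf9, Ifit2, Oasl1, Oasl2, Isg20, Ifitm1, Ifi35 or Xaf1, which says only that these letters are not in this window. Members with the ISRE core had a median level of 76.0 per kilobase and ranged from a mean of 3.57 (Oas3) to 10362 (Ifitm2). The 15 members without it had a median of 267 per kilobase, and 4 of them are receptors.

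Reads were present for all 44 members, and 36 had a mean normalised count of at least 10, compared with 74.1% of the 18581 autosomal genes with reads. The median member had a mean of 132.5, against 359.7 for all genes, and lay at percentile 42.0. Of the 44 members, 20 were above the median of all genes and 6 were above the upper quartile of 2098. Among genes with means of at least 10 alone, the median member lay at percentile 21.8 and 9 members were above the median. Means were at least 1000 in 11 members, from 100 to 1000 in 13, from 10 to 100 in 12 and below 10 in 8.

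Levels between genes are compared below per kilobase of spliced transcript, and the median of all genes on this scale was 150. Members spanned from 0.307 for Mx1 to 15820 for Ifitm2. The spread between libraries is not known for means of 100 or more, so neighbours in the order of levels cannot be called different there.

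**Figure D2:**
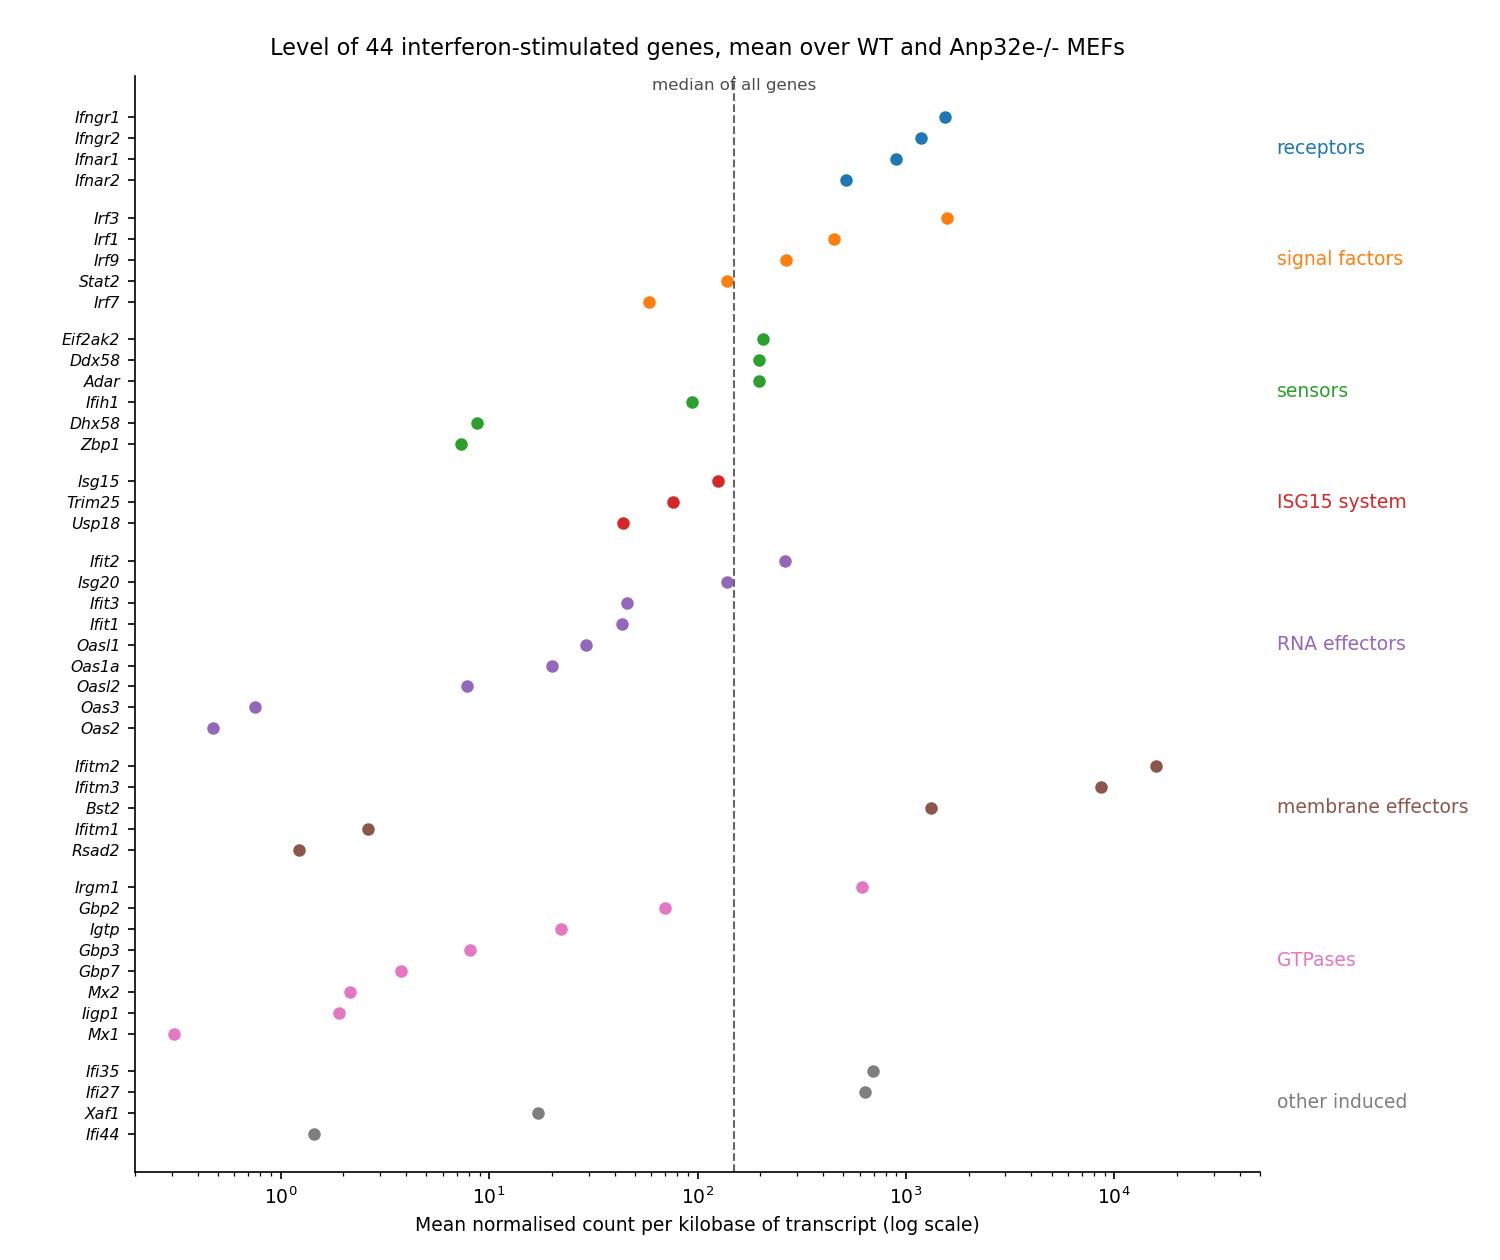
Mean normalised count per kilobase of transcript (x axis, log scale) for the 44 members grouped by role (y axis), each point being the mean over 3 WT and 3 Anp32e-/- libraries together. The dashed line is the median of all autosomal genes with reads, 150; the 4 receptors lie above it, whereas the 3 genes of the ISG15 system lie below it.

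All 4 receptors had means of at least 1569. Ifngr1 was at 1538 per kilobase, Ifngr2 at 1178, Ifnar1 at 893 and Ifnar2 at 515. Each was thus above the median of all genes, and the ratio of the highest to the lowest was smaller than in every other role except the ISG15 system. Ifnar2, Ifnar1 and Ifngr2 are neighbours on chromosome 16 (chr16:91372783-91564007, mm10).

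The signal factors had a median of 267 per kilobase. Irf3, which is activated by the sensors and switches on interferon beta, was at 1570 per kilobase. Its representative transcript, like those of Mx1 and Mx2, is a noncoding RefSeq record. Irf1, which amplifies the type II response, was at 452. Irf9 and Stat2, which belong to the ISRE-binding complex, were lower, at 267 and 139. Irf7, the factor that is itself induced and drives interferon alpha, was the lowest of the 5, with a level of 58.2 per kilobase and a mean of 112.

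Sensors fell into higher and lower members. The kinase PKR (Eif2ak2), which halts translation on double-stranded RNA, was at 207 per kilobase, RIG-I (Ddx58) was at 198 and the RNA editing enzyme Adar was at 197. MDA5 (Ifih1), the sensor of long double-stranded RNA, was at 94.3. These 4 had means from 516 to 1163. The other two were far lower, with LGP2 (Dhx58), a regulator of RIG-I and MDA5, at 8.73 per kilobase and Zbp1, a sensor of left-handed nucleic acid that can trigger necroptosis, at 7.32.

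The ISG15 system attaches and removes a ubiquitin-like protein. Isg15, the modifier, was at 126 per kilobase, Trim25, an E3 ligase that also acts on RIG-I, at 76.0 and Usp18, the protease that removes ISG15 and damps the type I receptor, at 43.8. All 3 were below the median of all genes per kilobase.

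RNA effectors had a median of 29.3 per kilobase. Ifit2, of the family that binds viral RNA ends, was the highest at 263, and the exonuclease Isg20 was at 138. The neighbouring Ifit3 and Ifit1 were at 46.0 and 43.5, although the 3 Ifit genes lie together at chr19:34550550-34650009 (mm10). The 2′-5′ oligoadenylate synthetase family, whose active members switch on RNase L, was lower. Oasl1, a member of the family without synthetase activity, was at 29.3, Oas1a at 20.1 and Oasl2 at 7.87. Oas3 was at 0.756 and Oas2 at 0.476, with means of 3.57 and 1.88. In the cluster at chr5:120730333-120907544 (mm10), Oas1a thus had a mean of 38.0 next to these 2 genes with means below 10.

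The membrane effectors held the highest and some of the lowest members. Ifitm2 and Ifitm3, which block fusion of virus with membranes of the cell, were at 15820 and 8599 per kilobase, with means of 10362 and 5830. Bst2 (tetherin), which holds budding virus at the surface, was at 1314. In contrast, Ifitm1, which lies between Ifitm2 and Ifitm3 on chromosome 7 (chr7:140967429-140969827, mm10), was at 2.62 with a mean of 1.93. Viperin (Rsad2), a radical SAM enzyme, was at 1.22.

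Among the GTPases, Irgm1, a regulator of the immunity-related GTPases, stood at 615 per kilobase. Gbp2, a guanylate-binding protein that attacks vacuoles of pathogens, was at 70.2 and Igtp (Irgm3) at 22.1. Gbp3 was at 8.08 and Gbp7 at 3.80, and both lie next to Gbp2 at chr3:142530336-142638008 (mm10). Mx2 was at 2.14, Iigp1, an effector at the vacuole of Toxoplasma, at 1.91 and Mx1, an inhibitor of influenza virus in the nucleus, at 0.307. Only Irgm1 of the 8 was above the median of all genes per kilobase.

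Of the remaining members, Ifi35 was at 699 per kilobase and Ifi27 at 636. Xaf1, a binding partner of the apoptosis inhibitor XIAP, was at 17.2 and Ifi44 at 1.45. Altogether, 19 members lie in 7 groups of neighbours less than 200 kb apart. Reads of similar family members (Ifit, Oas, Gbp, Irg and Ifitm genes) may be split or lost where copies are near-identical, so their levels are less certain than those of single genes.

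Other genes of the pathway that are not members were listed in the same way. Of 10 interferon genes, 8 were listed at 0, including Ifnb1, Ifng and 4 interferon alpha genes, and Ifnk and Ifne had means of 0.169 and 0.476. The kinases had means of 1198 for Tyk2, 1907 for Jak2 and 11517 for Jak1, and Stat3 had 5813. Of 11 genes of nucleic acid sensing, 9 had means of at least 10, with Sting1 at 1488, Cgas at 508 and Mavs at 2457. The endosomal receptors were the low ones, with Tlr3 at 43.1, Tlr7 at 4.90 and Tlr9 listed at 0. Of 5 negative regulators all had means of at least 10, with Socs1 at 221 and Trim30a at 13.0. Of 5 other IRFs, Irf2 had a mean of 348 and Irf5 of 788 (245 by its second transcript), while Irf8 had 1.98. Among 23 further induced genes 13 had means of at least 10, from Ifit3b at 28.0 to B2m at 22957, with Cxcl10 at 144, whereas Cxcl9 and Gbp4 were listed at 0.

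The labelled cell type was compared with its markers. Of 11 fibroblast markers, 10 had means of at least 10, with Vim at 330695 and Col1a1 at 26142, and Lum was at 1.33. That limit was passed by 74.1% of autosomal genes with reads. Per kilobase, Pdgfra (91.9), Dcn (81.8) and Lum (0.544) were below the median of all genes, 150, and the other fibroblast markers were above it. Of 8 macrophage and leukocyte markers, 3 had means of at least 10, while Ptprc was at 3.09 and Adgre1 at 0.178. The 3 were Cd68 at 257 (153 by its second transcript), Cd14 at 233 and Csf1r at 40.1. Of plasmacytoid dendritic markers, Siglech was listed at 0, Ly6d was at 1.12 and Tcf4 at 2697. Of the 4 endothelial markers, Kdr was the highest at 2958 (1207 by its second transcript), with Tek at 34.4, Pecam1 at 4.47 and Cdh5 at 3.54. Of the 4 epithelial markers, Krt18 was the highest at 1106, with Cdh1 at 67.1, Krt8 at 26.7 and Epcam at 5.12. Levels in bulk RNA do not tell few cells with much of a transcript from many cells with little.

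The variation of members between libraries was examined next. For means below 100, the printed digits allow the whole reads of each of the 6 libraries to be recovered. The libraries carry no name in the table, so they are numbered 1 to 6 by falling size factor (1.13 to 0.909) and belong to no genotype here. Of the 20 members below 100, 19 had exactly 1 solution and Isg15 had 2.

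Among RNA effectors the counts differed several-fold between libraries. Oasl1 had normalised counts of 76.9, 88.4, 36.0, 107, 24.6 and 49.5 in libraries 1 to 6. Library 4 was the highest and library 5 the lowest, with a ratio of 4.37, and their 95% counting intervals (87.9 to 130 and 15.6 to 36.9) were apart. Oas1a had 61.9, 56.1, 18.5, 46.6, 15 and 29.7, where library 1 was 4.14 times library 5. Its libraries 3 and 5 were the low ones, as they were for Oasl1. Oasl2 had 39.8, 32.3, 14.6, 29.4, 19.2 and 12.1, with a ratio of 3.29 between libraries 1 and 6. Ifit3 had 99.9, 105, 78.8, 86.1, 69.5 and 42.9, with library 6 as the lowest and a ratio of 2.44.

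GTPases varied to a similar extent. Igtp had 67.2, 47.6, 22.4, 68.9, 27.8 and 34.1 in libraries 1 to 6, with a ratio of 3.08 between libraries 4 and 3. Gbp7 had 27.4, 25.7, 17.5, 33.4, 13.9 and 9.90, with a ratio of 3.38. Gbp3 had the largest ratio of these members, 7.23, but it rested on 4 reads in library 6. Its values were 31.8, 23.8, 26.3, 21.3, 22.4 and 4.40, so the other 5 libraries ranged from 21.3 to 31.8.

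The 2 low sensors and the remaining members did not share 1 order of libraries. Dhx58 had 20.3, 19.0, 9.73, 27.4, 25.7 and 24.2, with library 3 alone low. Zbp1 had 25.6, 13.3, 8.76, 8.10, 11.8 and 19.8, with libraries 1 and 6 high. Xaf1 had 46.0, 64.7, 29.2, 33.4, 37.4 and 57.2, with a ratio of 2.21 between libraries 2 and 3. Usp18 was the steadiest, with 86.7, 69.4, 62.3, 82.1, 79.1 and 85.8, a ratio of 1.39 and overlapping intervals.

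**Figure D3:**
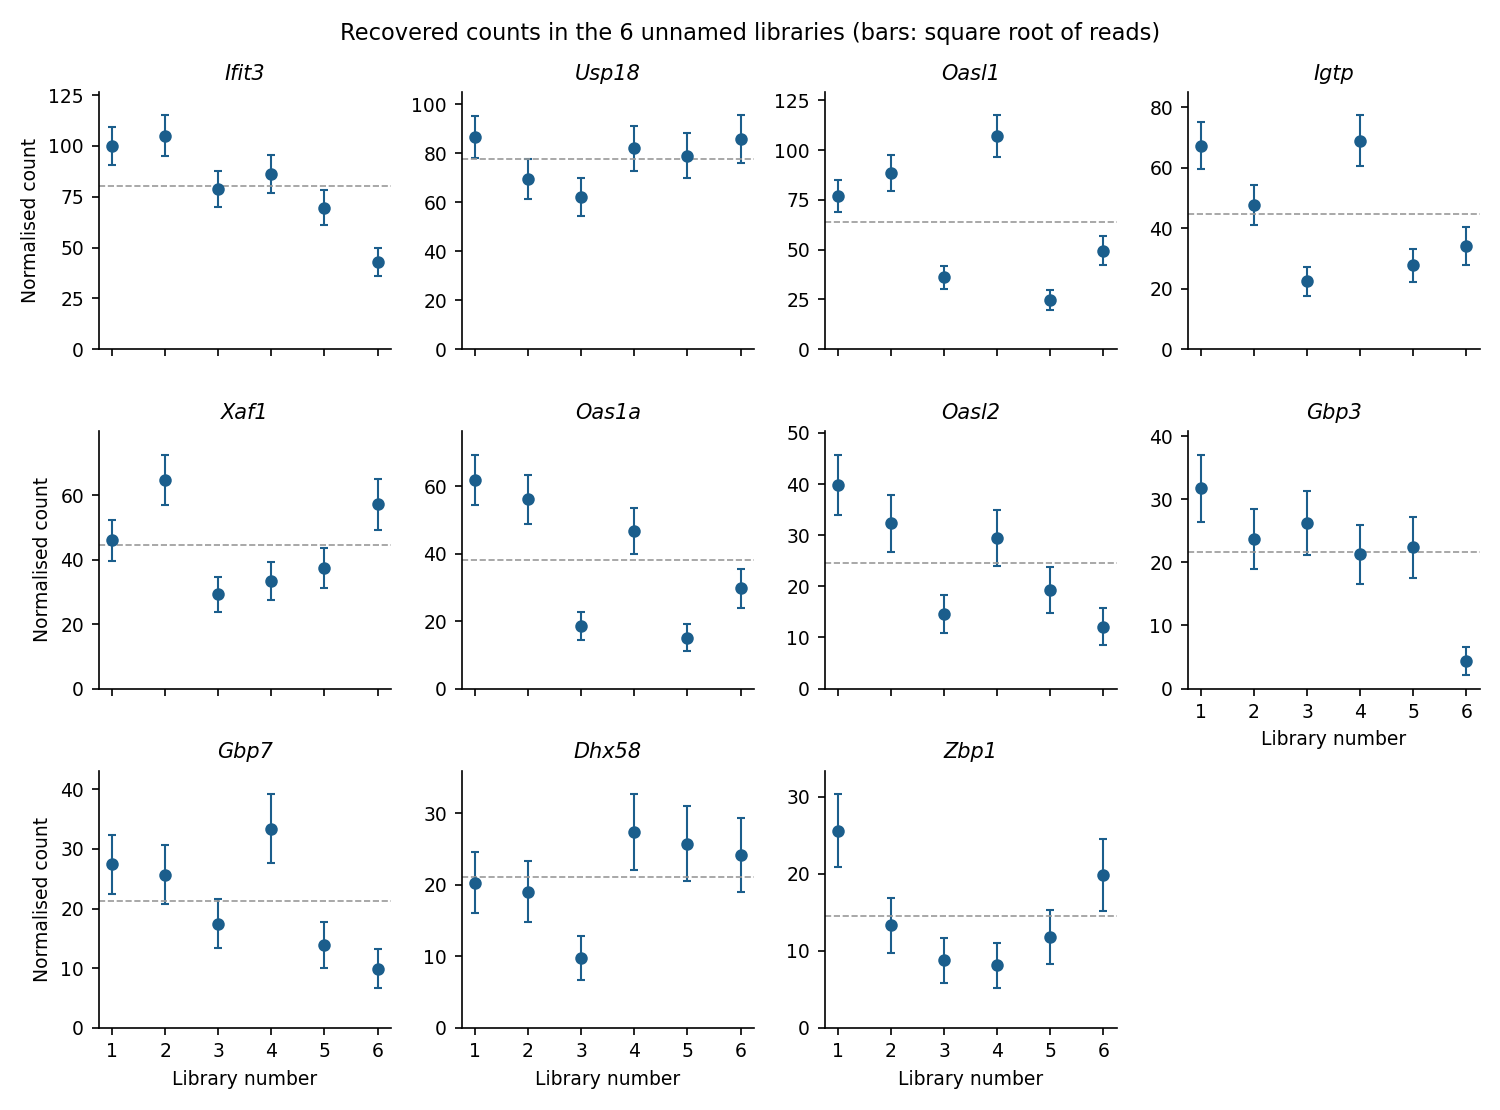
Normalised counts (y axes, from 0) of the 11 members with means of 10 to 100 and a single solution, in the 6 unnamed libraries (x axes). Bars are the square root of the reads on the same scale and dashed lines are the means; Usp18 stays between 62.3 and 86.7, whereas Oasl1 runs from 24.6 to 107.

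Of these 11 members, 10 had counting intervals of the highest and lowest library that were apart, compared with 71.1% of 2562 autosomal genes with means of 10 to 100. The highest and lowest of 6 libraries were picked by value, which raises this share for members and all genes alike. What else adds to it was not tested. The median ratio was 3.16 for the members and 2.77 for all genes of that range, and the median coefficient of variation was 42.7% and 36.9%. The highest library was library 1 for 5 members, library 4 for 4 and library 2 for 2. The lowest was library 3 for 4, library 6 for 4, library 5 for 2 and library 4 for 1. Among markers of other cell types, the epithelial Cdh1 had 7.96, 3.80, 148, 6.08, 112 and 124 and the macrophage receptor gene Csf1r had 22.1, 29.5, 49.6, 26.3, 56.7 and 56.1 in libraries 1 to 6. Both thus had their 3 lowest values in libraries 1, 2 and 4. The epithelial Krt8 and the endothelial Tek were not so divided. The leukocyte marker Ptprc, with only 19 reads, had its 3 highest values in libraries 1, 2 and 4 (3.54, 5.71 and 6.08). The part of these markers in the members' values was not tested.

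Isg15, with a mean of 95.1, allowed 2 readings. The first gives normalised counts of 132, 135, 55.5, 112, 91.9 and 44 in libraries 1 to 6, and the second gives 18.6, 157, 187, 16.2, 166 and 26.4. The printed mean does not tell these apart.

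The 8 members with means below 10 had from 5 to 36 reads in all 6 libraries together, and 5 of them had at least 1 library without a read, which allows up to 3 reads there. Rsad2 had 13, 2, 2, 9, 1 and 2 reads in libraries 1 to 6, so libraries 1 and 4 held most of its 29 reads. Iigp1 had 4, 4, 7, 15, 5 and 1 reads. Oas3 had 7, 0, 0, 0, 6 and 8 reads, a pattern unlike that of its neighbour Oas1a. Ifi44 had 5, 7, 1, 11, 2 and 0 reads, and Mx2 had 6, 9, 7, 6, 1 and 3. Oas2 and Ifitm1 had 11 reads each and Mx1 had 5, too few to order the libraries.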

How the data were processed

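RNA-Seq libraries of 3 WT and 3 Anp32e-/- MEF samples were made from total RNA with a stranded kit. For these libraries the authors used RNA-STAR for alignment to mm10, Subread featureCounts for counting on transcripts of RefSeq, and DESeq2 for normalisation. The deposited table holds 1 signal value for each transcript, which is the authors' mean over the 6 libraries of counts divided by size factors. Its 5 other columns hold the authors' comparison of the genotypes (fold change, its standard error, test statistic, p-value and adjusted p-value) and were not used, so no test of genotype was made. Total counts of the libraries are not in this table.

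Of 42361 transcripts, 42203 were matched to a gene in RefSeq's GRCm38 annotation. The transcript with the largest mean stood for its gene. Levels were divided by spliced length, and percentiles were taken among 18581 autosomal genes with reads.

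Since each printed mean has 15 digits, it was decomposed into whole reads in 6 libraries. The 6 lowest values gave the worth of 1 read in each library, and means under 100 were searched with a tolerance of 2 times the rounding error of the last digit. Of 7447 genes, 7375 had exactly 1 solution, 72 had more and 0 had none. The search was tested on simulated data. Libraries were numbered by falling size factor and assigned to no genotype. Exact Poisson intervals (95%) cover counting error only, and a floor of 3 reads per library was used in ratios.

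Motifs were searched on both strands of RefSeq promoters of GRCm38.p6, from 250 bases before the start to 50 bases from it on. Every member is named with its level. One gene of the wider pathway list is not reported here. The members and lists were chosen with earlier results of these data known. Python 3 with numpy, pandas, scipy, numba and matplotlib was used.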

Additional observations from a re-analysis of the deposited data

How the results depend on the processing

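No paired analysis was possible because the libraries in the pooled mean carry no replicate number. Counting members as detected from a mean of 1 or 50, or by other transcripts of the gene, gave 28 to 43 members. The median mean was 126 over transcripts of each gene and 562 among members of at least 10. The median level was 132.5 without division by length. The median percentile was 42.2 with X and Y, 21.8 among genes of at least 10 and 42.6 with ranks per kilobase. Against the median of genes of at least 10, 9 members were above. A tolerance 10 times stricter left 4 recovered members, since it is finer than the printed digits. The median ratio of highest to lowest library was 3.12 over 18 members, 3.164 for those with at least 60 reads, and 2.725 to 3.125 in a leave-one-out of the libraries. With the window limited to the 200 bases before the start, which also drops the 50 bases from the start on, the GAS core was in 7 members (6.12% of genes) and the ISRE core in 15 (6.15%). With 1 further A required the ISRE core was in 18 members (3.9% of genes). Depth limits the members below 10, and the spread of the 24 members of 100 or more could not be recovered.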

Other observations

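The normalised counts of the 11 members with means of 10 to 100 were summed in each unnamed library and divided by the mean over the 6 libraries. The sums were 1.29, 1.21, 0.717, 1.20, 0.766 and 0.818 in libraries 1 to 6, so 3 libraries lay above 1 and the others were at most 0.818. The same sum over 2562 autosomal genes of that range stayed between 0.977 and 1.02. Correction for depth tends to hold a sum over so many genes near 1, so it does not show how far a sum of 11 varies. Libraries 1, 2 and 4 are the 3 picked by these sums, so their rank in the same members adds no separate support. They were the highest 3 for 6 of the 11 members, namely Oasl1, Oas1a, Oasl2, Igtp, Gbp7 and Ifit3. They were the highest 3 for 20.7% of all genes of that range, and libraries 3, 5 and 6 were so for 19.5% of genes and 0 members. No other set of 3 libraries exceeded 4.33% of genes. Of the other cell type markers with recovered reads and means of at least 10, Cdh1 and Csf1r were each lower in libraries 1, 2 and 4 than in the other three, from 3.80 to 7.96 against 112 to 148 for Cdh1 and from 22.1 to 29.5 against 49.6 to 56.7 for Csf1r. Tek, with 25.6, 25.7, 39.9, 32.4, 59.9 and 23.1 in libraries 1 to 6, and Krt8, with 8.84, 24.7, 29.2, 33.4, 40.6 and 23.1, were not so divided. The table does not say which libraries are WT or Anp32e-/-, and no cause was tested.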
